A study of Bos taurus with 6 samples.

Results

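The interleukin-1 (IL-1) family in cultured bovine granulosa cells (GC) is described by 9 genes, 5 encoding ligands (*IL33*, *IL1RN*, *IL1A*, *IL1B* and *IL18*) and 4 encoding receptor chains (*IL1R1*, *IL1R2*, *IL1RL1* and *IL1RAP*). They were taken by gene symbol from the deposited array table, where each symbol has 1 transcript cluster (a set of probes summarized to a gene), so that 9 of 26773 transcript clusters belong to them. The members were chosen by their log2 signals at high versus normal density, so their signals and differences, and the count of members past the thresholds below, are given as a description from which nothing is read. The GC were aspirated from small to medium sized follicles of abattoir ovaries, pooled over many cows of unknown cycle stage and frozen before plating. Both groups were kept serum-free for 9 days in α-MEM with FSH, IGF-1 and androstenedione and differed in the initial plating density, normal (n = 3) or high (n = 3). The labels give the cultures as replicates without naming the cell pools, so the spread between them may be partly technical. Signals are RMA values on the log2 scale, and a difference is the mean at high density minus the mean at normal density, with the standard error of the limma fit.

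IL-1 family cytokines act through receptor pairs of the Toll/IL-1 receptor class, in which a ligand-binding chain joins an accessory chain and recruits MYD88 and IRAK kinases to activate NF-kappaB and MAP kinases. The system is held in check at several levels, by the receptor antagonist encoded by *IL1RN*, by the decoy receptor encoded by *IL1R2* and by inhibitors inside the cell such as IRAK3. In the ovary IL-1 is known as an inflammatory signal around ovulation, when GC and the leukocytes that enter the follicle produce prostaglandins, hyaluronan and proteases.

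A pair of the 9 members stood far apart between the densities, *IL33* and *IL1RN*, and both were higher at high density. The differences of the other 7 lay between −0.25 and 0.29 on the log2 scale. At the thresholds of the methods, a fold change (FC) above 1.5 in size with a p-value and an FDR below 0.05 (here from limma), 2 of the 9 members were called, both higher at high density, while 7.49% of all transcript clusters were, 3.97% higher and 3.51% lower at high density. The signals of the densities did not overlap for 5 members, 4 of them higher and 1 lower at high density, against 37.3% of all transcript clusters (17.8% higher and 19.5% lower). The median difference of the members was 0.10 and that of all transcript clusters 0.02. As a background level served the 95th percentile of the reporter control rows, a log2 signal of 4.62, which 51.2% of all transcript clusters did not exceed at either density. Of the members 4 exceeded it in at least 1 group, namely *IL33*, *IL1RN*, *IL18* and *IL1R1*, and the other 5 were below it on every array.

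**Figure D1:**
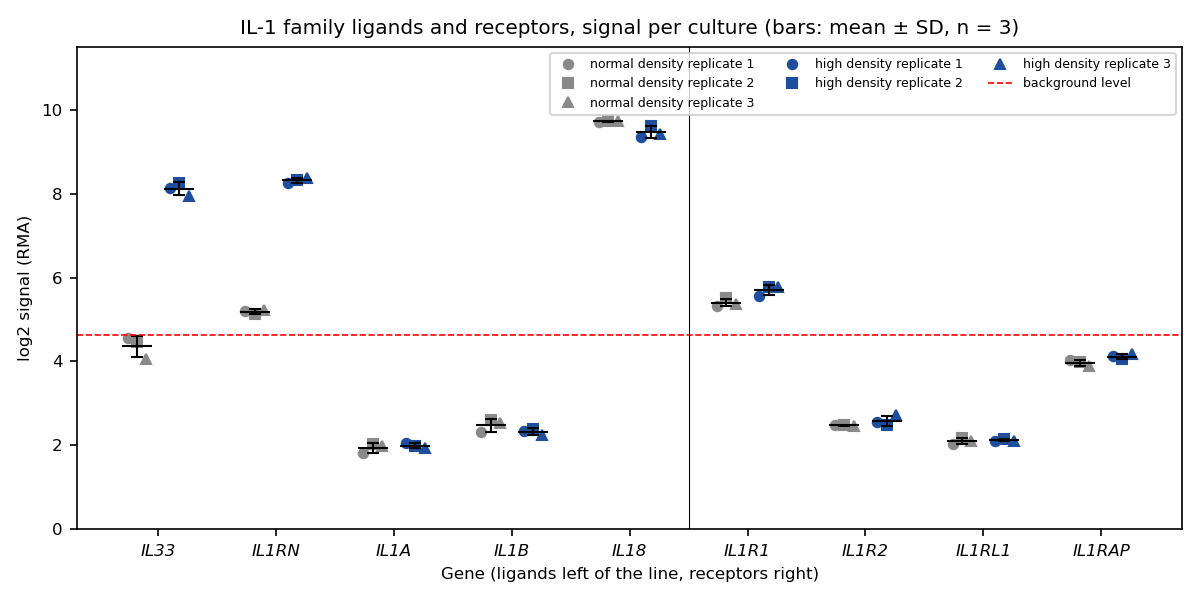
Log2 signal (vertical axis) of each IL-1 family gene (horizontal axis) in the normal density (grey) and high density (blue) cultures, with black bars for the mean ± SD (n = 3) and a dashed line at the background level of 4.62. *IL33* and *IL1RN* lie near 8 in all high density cultures and near 4 to 5 in all normal density cultures, while *IL1A*, *IL1B*, *IL1R2*, *IL1RL1* and *IL1RAP* stay below the line at both densities.

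*IL33* (transcript cluster 12893064, NM_001075297) encodes an alarmin that is stored in the nucleus and released from damaged cells. Its signals were 4.56, 4.45 and 4.06 in the normal density cultures and 8.13, 8.26 and 7.95 in the high density cultures. All normal density cultures were below the background level and all high density cultures well above it. The means were 4.36 ± 0.26 and 8.11 ± 0.16 (SD, n = 3), and the difference was 3.76 (standard error 0.14). Because the normal density signals were below the background level, *IL33* was at least 11.3-fold higher at high density, when these signals are set to that level. The lowest high density culture exceeded the highest normal density culture by 3.40, and leaving out single cultures gave differences of 3.61 to 3.86. In bulk RNA such a change can come from more *IL33* RNA per cell or from more cells that make it, which cannot be told apart here.

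*IL1RN* (12698536), the gene of the IL-1 receptor antagonist, which occupies the IL-1 receptor without signalling, was measured above the background level in every culture. The normal density signals were 5.20, 5.13 and 5.24, and those at high density 8.25, 8.33 and 8.38. Within a density the cultures lay closer together than for *IL33*, with an SD of 0.06 at both densities (n = 3). The difference was 3.13 (standard error 0.07), 8.76-fold in the means, and leaving out single cultures gave differences of 3.10 to 3.16.

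The agonists that the antagonist competes with, IL-1 alpha and IL-1 beta, were not measurable at this sensitivity. *IL1A* (12703833) had signals of 1.81, 2.03 and 1.97 at normal density and of 2.06, 1.99 and 1.93 at high density. *IL1B* (12703842) had signals of 2.31, 2.60 and 2.53 at normal density and of 2.33, 2.40 and 2.24 at high density. For both the densities overlapped and every signal was far below the background level, so no FC is given. Their differences were 0.06 (standard error 0.08) for *IL1A* and −0.16 (standard error 0.10) for *IL1B*, and that of *IL1A* ranged from −0.01 to 0.10 with single cultures left out. With a low array signal, a low level of these RNAs at either density remains possible.

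*IL18* (12730744), a cytokine made as an inactive precursor and cut by caspase-1, was well above the background level in all cultures. Its signals of 9.70, 9.73 and 9.74 at normal density were close to each other (SD 0.02, n = 3). The high density cultures had 9.36, 9.62 and 9.43 and were all lower, with replicate 2 nearest to the normal density cultures. The gap between the groups was 0.08, smaller than the range of 0.26 within high density. The difference was −0.25 (standard error 0.09), which is below the FC threshold, and it was between −0.33, without high density replicate 2, and −0.20.

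Among the receptors, *IL1R1* (12700084), the signalling receptor for IL-1 alpha and beta, was the one whose signals exceeded the background level, and they did so in every culture. They were 5.32, 5.51 and 5.38 at normal density and 5.56, 5.77 and 5.76 at high density. The densities did not overlap, but only 0.05 separated normal density replicate 2 from high density replicate 1. The difference of 0.29 (standard error 0.09) corresponds to a 1.22-fold higher signal and did not reach the FC threshold.

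*IL1R2* (12700098), the decoy receptor, had signals of 2.49, 2.48 and 2.47 at normal density and of 2.54, 2.48 and 2.72 at high density. High density replicate 3 was somewhat higher than the rest, and the difference was 0.10 with it and 0.03 without it. *IL1RL1* (12700517), which encodes ST2, the receptor for IL-33, had 2.04, 2.17 and 2.10 at normal density and 2.10, 2.15 and 2.10 at high density. The densities overlapped, and the difference of 0.02 (standard error 0.07) changed its sign with the scaling of the arrays. All of these signals were below the background level. *IL1RAP* (12686272), the accessory chain that both *IL1R1* and *IL1RL1* need, had 4.03, 3.99 and 3.89 at normal density and 4.12, 4.05 and 4.17 at high density. These were all below the background level, with groups that lay apart by 0.02 and a difference of 0.14 (standard error 0.07).

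The profiles of *IL33* and *IL1RN* were compared with those of 20573 other transcript clusters that carry a symbol. Likeness was the Euclidean distance between log2 signals centred on the mean of each transcript cluster over the 6 arrays, so that a small distance stands for similar measured signals around that mean. Nearest to *IL33* were *NRN1* (neuritin, distance 0.34), *EGLN3* (a prolyl hydroxylase of hypoxia-inducible factors, 0.44), *KRT8* (a keratin of simple epithelia, 0.55), *LPL* (lipoprotein lipase, 0.57) and *TGM2* (a transglutaminase, 0.74). *IL1RN* was number 10 in this order, at 0.92. Nearest to *IL1RN* were *SLC38A4* (an amino acid transporter, 0.36), *SYT17* (a synaptotagmin, 0.38), *CHAC1* (a glutathione-degrading enzyme, 0.40), *CDKN1C* (a cell cycle inhibitor, 0.46) and *EMP1* (an epithelial membrane protein, 0.47). From *IL1RN*, *IL33* was number 32. The profiles share the contrast between the densities by which *IL33* and *IL1RN* were chosen, so the order is a description of 6 arrays. *IL33*, *NRN1*, *EGLN3*, *TGM2*, *SLC38A4*, *SYT17*, *CHAC1* and *EMP1* were below the background level on every normal density array, which limits the size of their differences and with it this order.

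In the RefSeq gene order of the cattle genome (assembly ARS-UCD2.0) *IL1A*, *IL1B* and *IL1RN* lie in 1 row of ligand genes, with the IL-36 genes, *IL37* and *IL1F10* between them. Of the 12 protein-coding genes from the neighbour of *IL1A* to that of *IL1RN*, 11 were measured and 8 of these were below the background level at both densities. In this row *IL1RN* had the difference of 3.13 given above. *IL1F10*, next to it on one side, had a difference of −0.04 (standard error 0.11, limma's adjusted p = 0.820). *PSD4*, an ARF exchange factor gene on the other side, passed the FDR but not the FC threshold, with a difference of 0.46 (standard error 0.09, limma's adjusted p = 0.0103). *CKAP2L*, a mitotic spindle gene beside *IL1A*, was called with a fall (difference −1.19, standard error 0.12, limma's adjusted p = 5.59e-04). The receptor genes *IL1R2*, *IL1R1* and *IL1RL1* form another row with *IL1RL2*, *IL18R1* and *IL18RAP*, and none of the 8 genes from *MAP4K4* to *SLC9A4* was called by limma, although *MAP4K4*, a kinase gene, passed the FDR (limma's adjusted p = 0.00403) and differed by −0.52 (standard error 0.08). The neighbours of *IL33*, *TPD52L3* and *RANBP6*, had differences of 0.06 and −0.14 and were not called.

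**Figure D2:**
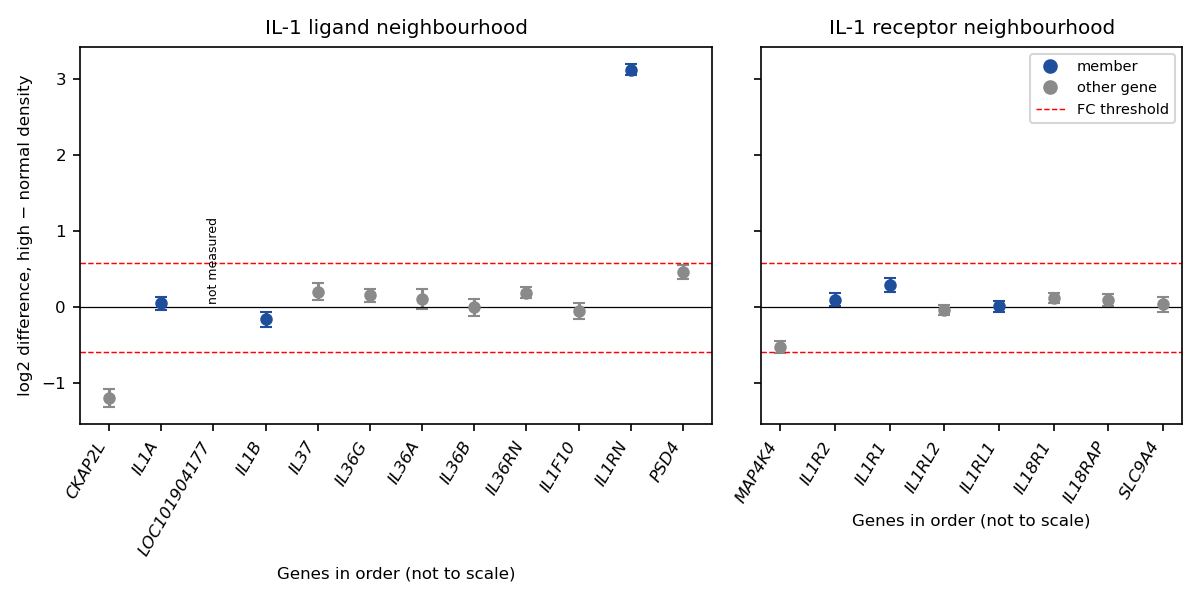
Difference in log2 signal, high minus normal density (vertical axis, error bars are standard errors), for the protein-coding genes of the IL-1 ligand and IL-1 receptor rows in their order along the chromosome (horizontal axis, not to scale), members in blue and other genes in grey, with dashed lines at the FC threshold. In the ligand row *IL1RN* stands at 3.13 and *CKAP2L* at −1.19, while the other measured genes of both rows stay between the dashed lines.

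The other genes of the family were all below the background level. They comprise the IL-36 ligands and their antagonist *IL36RN*, *IL37*, *IL1F10*, the IL-18 receptor chains, the IL-18 binding protein *IL18BP*, the inhibitory receptor *SIGIRR*, *IL1RL2*, *IL1RAPL1* and *IL1RAPL2*. Of these 13 genes 0 were called by limma and 0 by the methods' test, which called 6.02% of all transcript clusters. An unadjusted limma p below 0.05 was reached by 2 of them, beside 8645 of all 26773 transcript clusters. The median difference of the 13 genes was 0.10, and the range was from −0.27 for *IL1RAPL2* to 0.21 for *IL37*. The receptor chains for *IL18*, which itself had a high signal, were low at both densities. Mean signals of *IL18R1* were 1.67 at normal and 1.79 at high density, and those of *IL18RAP* 1.97 and 2.07. The soluble inhibitor gene *IL18BP* had means of 4.44 and 4.26.

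Genes for the processing and release of IL-1 family cytokines changed in both directions. Of 15 measured genes 2 rose and 3 fell by the same thresholds, with a median difference of 0.04, against 7.49% called of all transcript clusters and a median of 0.02. This and the other pathway lists were chosen with earlier results of these data known, so their counts are given as a description. *GSDME* (listed as *DFNA5*), a gasdermin that forms pores after cleavage by caspase-3, had signals of 5.57, 5.64 and 5.43 at normal density and 7.28, 7.35 and 7.21 at high density. It rose by 1.73 (standard error 0.08, limma's adjusted p = 2.80e-05). *S100A13*, a calcium-binding protein that takes part in the release of IL-1 alpha without a signal peptide, rose by 1.38 (standard error 0.10, limma's adjusted p = 1.47e-04). Of the falls, *CASP4*, an inflammatory caspase that senses lipopolysaccharide, changed by −1.23 (standard error 0.16, limma's adjusted p = 0.00201). *PANX1*, a channel that releases ATP, changed by −0.63 (standard error 0.08, limma's adjusted p = 0.00184), and by −0.57, just below the FC threshold, without high density replicate 3. *TXNIP*, which binds thioredoxin and has been tied to NLRP3, had signals of 9.96, 10.07 and 10.01 at normal density and 3.66, 4.40 and 3.73 at high density, the latter below the background level. It was therefore at least 41.9-fold lower. The inflammasome sensors *NLRP1*, *NLRP3* and *NLRC4* and the enzyme *CASP1* were not measurable at this sensitivity. The sensors *AIM2* and *MEFV* were not found by symbol. The means of *CASP1* were 1.75 at both densities, those of *NLRP3* 2.27 and 2.31, and those of *PYCARD*, their adaptor, 4.36 and 4.10.

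The signalling chain behind the receptors was measured nearly in full, with 38 of 41 genes above the background level in at least 1 group. By limma 3 of the 41 rose and 1 fell. The list's median difference was −0.03, beside 0.02 for all transcript clusters. The called share was 9.76%, beside 7.49% of all transcript clusters. With only signals above the background level, 3 genes of the list were called, beside 13% of the 13077 transcript clusters then tested. *MYD88*, the adaptor of the receptors, had means of 7.84 and 7.72 (difference −0.13, limma's adjusted p = 0.33), and *TRAF6*, *IRAK1*, *IRAK4* and *MAP3K7* also did not pass the thresholds.

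The called genes of this chain were *IRAK3*, *TNIP1*, *MAP3K8* and *REL*. *IRAK3*, a kinase-like protein that restrains IRAK signalling, had signals of 3.65, 3.69 and 3.80 at normal density and of 4.29, 4.75 and 4.55 at high density. The groups did not overlap and the difference was 0.82 (standard error 0.12, limma's adjusted p = 0.00362). A single culture, high density replicate 2, exceeded the background level, so no FC is given. *TNIP1*, a ubiquitin-binding partner of the NF-kappaB inhibitor TNFAIP3, rose from 6.45, 6.56 and 6.41 to 7.34, 7.10 and 7.14 (difference 0.72, standard error 0.09, limma's adjusted p = 0.00150). *MAP3K8*, a kinase that activates the ERK pathway downstream of the receptors, changed from 4.42, 4.38 and 4.79 to 5.38, 5.32 and 5.28. Its difference was 0.80 (standard error 0.12, limma's adjusted p = 0.00344). *REL*, an NF-kappaB subunit, fell from 6.82, 6.66 and 6.78 to 5.54, 5.96 and 5.49, a difference of −1.09 (standard error 0.13, limma's adjusted p = 0.00134).

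Smaller differences of the chain passed the FDR threshold, as 19.1% of all transcript clusters did, but not the FC threshold, and these genes were chosen after their values were seen. *NFKB1*, the p105 and p50 subunit gene, differed by 0.36 (standard error 0.07, limma's adjusted p = 0.0111). *TNFAIP3*, the deubiquitinase A20, differed by 0.47 (standard error 0.10, limma's adjusted p = 0.0201) and *NFKBIZ*, a nuclear IkappaB protein, by 0.29 (standard error 0.08, limma's adjusted p = 0.0399). *UBE2V1*, a ubiquitin-conjugating enzyme variant that acts with TRAF6, was the one of these genes that was lower (difference −0.27, standard error 0.07, limma's adjusted p = 0.0401). The classical feedback gene *NFKBIA* had means of 5.64 and 5.59 with a difference of −0.06 (limma's adjusted p = 0.615).

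**Figure D3:**
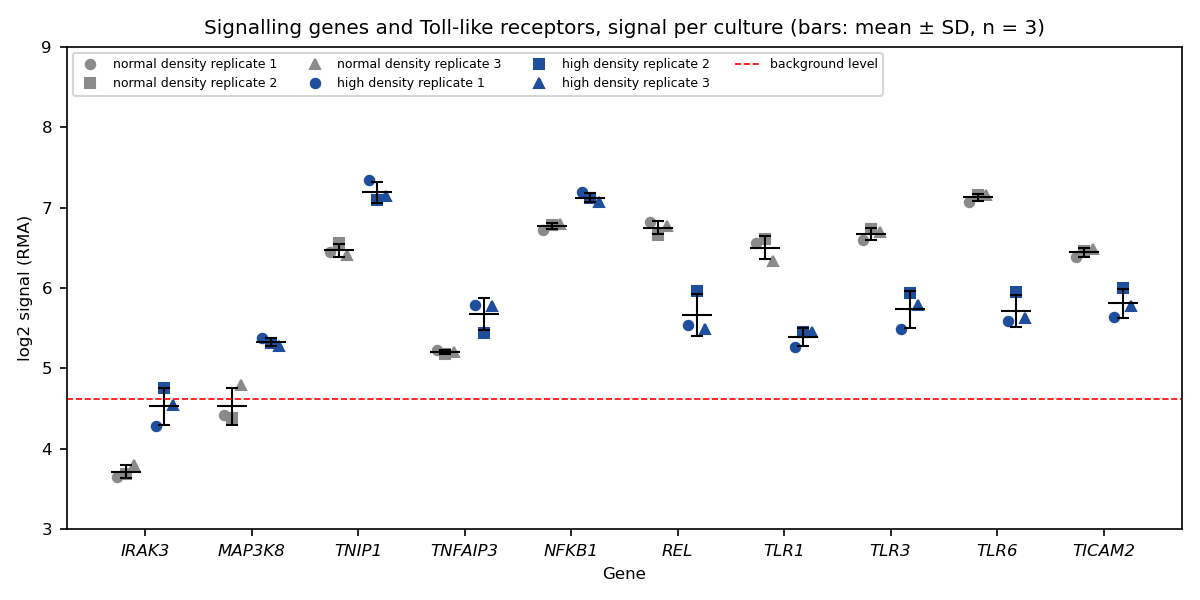
Log2 signal (vertical axis) per culture for genes of IL-1 receptor signalling and Toll-like receptors (horizontal axis), grey for normal and blue for high density, with black bars for the mean ± SD (n = 3) and a dashed line at the background level. *REL*, *TLR1*, *TLR3*, *TLR6* and *TICAM2* are lower in all high density cultures, and *IRAK3*, *MAP3K8*, *TNIP1*, *TNFAIP3* and *NFKB1* higher.

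Genes that IL-1 and NF-kappaB are known to induce were split. Of 43 measured genes 8 rose and 3 fell, 25.6% called, with a median difference of 0.09, beside 7.49% and 0.02 for all transcript clusters. The list was chosen with earlier results of these data known, so this share is given as a description. Many genes of this list also answer to LH, TGF-beta or low oxygen, so it does not stand for IL-1 alone. *PTGES*, the prostaglandin E synthase, had the largest rise of the list, from 6.61, 6.85 and 6.49 to 9.71, 9.33 and 9.43 (difference 2.84, standard error 0.13, limma's adjusted p = 2.32e-05). *PTX3*, the long pentraxin of the cumulus matrix, rose by 1.61 (standard error 0.17, limma's adjusted p = 7.26e-04) and *F3*, tissue factor, by 1.56 (standard error 0.14, limma's adjusted p = 4.50e-04). *MMP9*, a gelatinase, had signals below the background level in all normal density cultures and was at least 1.20-fold higher at high density (limma's adjusted p = 8.81e-04). Further rises were those of *ADAMTS1*, *HAS2* and *LIF*, with differences of 0.92, 0.87 and 0.73. *HAS2*, the hyaluronan synthase, was below the background level on all arrays. Its call was lost by the methods' test and without normal density replicate 1, normal density replicate 3 or high density replicate 3, when limma's adjusted p was between 0.0739 and 0.0847.

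The falls among the targets were *CSF1*, *IRF1* and *NOS2*. *CSF1*, the macrophage growth factor, changed from 5.76, 5.93 and 5.91 to 4.20, 4.20 and 4.33, the latter below the background level, so that it was at least 2.38-fold lower (limma's adjusted p = 3.37e-05). *IRF1*, a transcription factor of interferon responses, differed by −0.80 (standard error 0.08, limma's adjusted p = 7.95e-04). Its high density mean of 4.56 was below the background level. *NOS2*, the inducible nitric oxide synthase, differed by −0.62 (standard error 0.09, limma's adjusted p = 0.00253), and by −0.56 without normal density replicate 2, which is below the FC threshold.

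Of the secreted cytokines and chemokines of the list, *LIF* and *CSF1* are given above, and *CXCL8*, *IL6*, *CCL2* and *TNF* had signals below the background level. The means of *CXCL8* were 2.08 at normal and 2.36 at high density, those of *IL6* 1.93 and 1.95, those of *CCL2* 2.17 and 1.97 and those of *TNF* 2.54 and 2.71. None of these was called by limma. In all, 25 of the 43 target genes were below the background level in both groups. *PTGS2*, cyclooxygenase-2, was above it with means of 6.74 and 7.06 and a difference of 0.33 (standard error 0.11, limma's adjusted p = 0.0939).

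**Figure D4:**
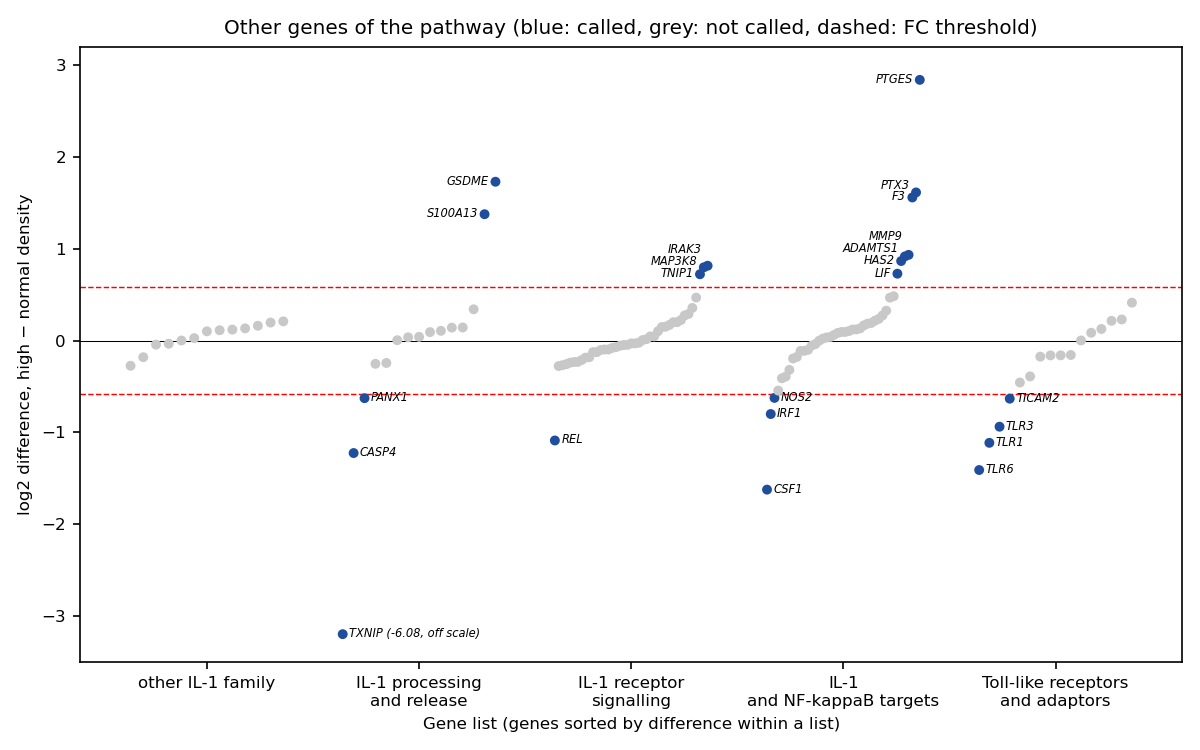
Difference in log2 signal, high minus normal density (vertical axis), for the genes of each pathway list (horizontal axis, sorted within a list), called genes in blue with their symbols, others in grey, 1 target gene not drawn, dashed lines at the FC threshold and *TXNIP* drawn at the lower edge because its difference of −6.08 is off the scale. The 13 other IL-1 family genes lie close to 0, the called targets lie on both sides and the called Toll-like receptor genes only below 0.

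Toll-like receptors share the intracellular domain and the adaptors of the IL-1 receptors. Of these receptors *TLR1*, *TLR3* and *TLR6* exceeded the background level, and all of these were lower at high density. Of 16 genes 0 rose and 4 fell by limma and by the methods' test, with a median difference of −0.16, beside 3.51% of all transcript clusters called with a fall. *TLR6*, a partner of TLR2, had signals of 7.08, 7.15 and 7.16 at normal density and 5.59, 5.95 and 5.62 at high density (difference −1.41, standard error 0.11, limma's adjusted p = 1.84e-04). *TLR1* had 6.56, 6.61 and 6.34 at normal density and 5.26, 5.46 and 5.45 at high density (difference −1.11, standard error 0.10, limma's adjusted p = 3.74e-04). TLR1 and TLR6 are close paralogs, and whether their probes share targets was not tested. *TLR3*, the receptor for double-stranded RNA, differed by −0.94 (standard error 0.12, limma's adjusted p = 0.00174). *TICAM2*, an adaptor, differed by −0.63 (standard error 0.10, limma's adjusted p = 0.00501), and by −0.55 without high density replicate 1, below the FC threshold. *TLR2* and *TLR4* were below the background level, with means of 3.00 at both densities for *TLR2* and of 2.74 and 2.56 for *TLR4*.

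Markers of other cells that make IL-1 family cytokines were examined beside these values. All 18 leukocyte markers were below the background level at both densities, with *PTPRC*, the common leukocyte antigen, at means of 2.16 and 1.94. Of them 0 were called by limma or by the methods' test. An unadjusted limma p below 0.05 was reached by 2, beside 8645 of all 26773 transcript clusters. The log2 of the summed signals of the leukocyte markers was 7.42 to 7.44 at normal density and 7.40 to 7.55 at high density. Of 11 endothelial markers 10 were below the background level, *PECAM1* and *CDH5* among them, and *VWF* exceeded it with means of 5.39 and 5.70. The one called, *CLEC14A*, was higher at high density but below that level. *KDR* (difference 0.48, limma's adjusted p = 0.0275) and *TEK* (difference −0.36, limma's adjusted p = 0.0303) passed the FDR but not the FC threshold. The summed signal of this list was 6.81 to 6.90 at normal and 6.97 to 7.06 at high density. Of 9 markers of ovarian surface epithelium and mesothelium 1 was called, *UPK1B*, with a difference of 0.62 (standard error 0.08, limma's adjusted p = 0.00197). *WT1* passed the FDR but not the FC threshold (difference 0.45, limma's adjusted p = 0.00777). *UPK1B*, *MSLN*, *CDH1* and *WT1* exceeded the background level in at least 1 group and the other 5, *EPCAM* and *KRT19* among them, did not. The 9 differences ran from 0.02 for *EPCAM* to 0.62 for *UPK1B* (median 0.16), and the summed signal was 9.73 to 9.79 at normal and 10.2 to 10.4 at high density. Among 8 markers of theca and stroma *INSL3* rose by 1.82 (standard error 0.09, limma's adjusted p = 3.88e-05). *PDGFRA* (difference 0.32, limma's adjusted p = 0.0236) and *COL3A1* (difference 0.39, limma's adjusted p = 0.0302) passed the FDR but not the FC threshold. Of the 8 markers 6 exceeded the background level. The highest were *LUM*, with a mean of 11.6 at both densities, and *DCN*, with means of 10.7 and 10.9. *CYP17A1*, which defines theca cells, had means of 2.93 and 2.92, and *TCF21* had 3.17 and 3.11, all below that level. The summed signal of the theca and stroma list was 12.4 in all normal density cultures and 12.6 in all high density cultures. The part of the epithelial, stromal and endothelial lists in the *IL33* and *IL1RN* values was not tested. All 12 GC markers exceeded the background level in at least 1 group. By limma 6 of them were called with a fall and 0 with a rise, beside 3.51% and 3.97% of all transcript clusters. The falls were those of *FSHR* (difference −2.21), *INHA* (−2.16), *INHBA* (−1.37), *FST* (−0.82), *FOXL2* (−0.65) and *CYP19A1*, at least 3.70-fold lower. *CYP11A1* (0.26) and *HSD3B1* (−0.28) passed the FDR but not the FC threshold. *INHBB* (0.44), *GATA4* (0.12), *AMH* (−0.18) and *NR5A1* (−0.28) did not pass the FDR. The median difference of the GC markers was −0.47.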

How the data were processed

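RNA from 6 cultures was hybridized to Affymetrix bovine gene arrays, 1 per culture. The authors processed the scans in Expression Console with RMA (background reduction, normalization, gene-level summary), and deposited the log2 signals, which were used as given. The table lists 26773 transcript clusters, 82 of them reporter controls, and 0 columns of other samples. RMA pulls low signals together, so that differences near the background level are understated. The genome build of the array annotation is not given in the sources used here.

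All transcript clusters were fitted with limma 3.58.1 in R 4.3.3 (lmFit, eBayes, no covariates) with Benjamini-Hochberg adjustment. The analysis of variance of the methods, which for 2 groups is a t-test per transcript cluster, is called the methods' test. For pathway genes with several transcript clusters the one with the highest mean was used, and 3 genes each of the processing and target lists were not found by symbol. A fold is given as at least N-fold where a group lay below the background level on every array, with that group set to this level. No fold is given where both group means were below it. Array medians lay between 4.34 and 4.43, and the number of arrays limits the precision. An exact permutation test of 3 against 3 cannot give a p below 0.1.

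The members and gene lists were chosen with earlier results of these data known. Named in the text are all members, up to 5 called rises and 5 called falls per pathway list, the 5 nearest profiles of *IL33* and *IL1RN* and genes adjacent to members. Other genes were chosen after their values were seen. The target list counts include 1 gene that is not reported here. All 9 member symbols were found in the RefSeq table, which served for the order of genes and of which no coordinates are printed. On simulated data with 26773 transcript clusters, 200 of them changed, limma recovered 99% of the changes of 2 log2 units and 85% of those of 1, with 1 false call. Each simulated transcript cluster was drawn independently from a normal distribution, so effects shared within a culture are not covered. Far fewer were changed than the 19.1% of transcript clusters that passed the FDR in the data. Alternatives were the methods' test, eBayes with trend and robust variances, the replicate number as a block, both rescalings, a filter at the background level, another background level, all transcript clusters of a gene, the FDR alone (chosen after seeing the data) and leaving out each culture. Plots were made in Python 3.11.15 (matplotlib 3.10.9).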

Additional observations from a re-analysis of the deposited data

How the results depend on the processing

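The arrays were shifted to the same median or quantile normalized again. Each time the differences of the 9 members moved by less than the pooled SD of the cultures of both densities. Leaving out 1 of 3 cultures cannot move a difference by more than this SD, so those values are given without such a comparison. With each culture left out, the difference was between 3.61 and 3.86 for *IL33* and between 3.10 and 3.16 for *IL1RN*, and that of *IL1RL1* changed its sign, between −0.02 and 0.05. With the median of all signals (4.38) as the background level, the same number of members, 4, exceeded it. Counts of called genes per pathway list stayed within 1.5 times in 69 of 70 comparisons. The exception was chosen after seeing the data. With the FDR threshold alone, 8 genes of IL-1 receptor signalling passed, 6 higher and 2 lower, beside 19.1% of all transcript clusters. With each culture left out the counts were 4 to 5 for processing and release, 4 in each case for receptor signalling, 10 to 11 for targets and 3 to 4 for Toll-like receptors, and 0 for the other family genes. Same-numbered cultures of the densities did not deviate together (correlations between −0.05 and 0.05), so no sign of pairing was seen. These correlations over all transcript clusters cannot exclude pairing, on which the labels are silent. With the replicate number as a block, 4 genes of receptor signalling, 11 targets, 5 genes of processing and release, 4 Toll-like receptor genes and 0 other family genes were called, the counts of the unblocked fit. Of the genes named from these lists, *IRAK3* and *HAS2* were not tested under the filter at the background level, and 7 calls of *HAS2*, *PANX1*, *NOS2* and *TICAM2* were lost, as given above. Signals near the background level limit what can be said of *IL1A*, *IL1B*, *IL1R2*, *IL1RL1* and *IL1RAP*.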

Other observations

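Several genes around the IL-1 family passed the FDR but not the FC threshold and are not described above. *CEBPD*, a transcription factor of the acute phase response, had signals of 9.28, 9.28 and 9.20 at normal density and 8.65, 8.77 and 8.70 at high density, a difference of −0.54 (standard error 0.07, limma's adjusted p = 0.00178). *PLAU*, the urokinase gene, had means of 4.87 and 4.47, the latter below the background level (limma's adjusted p = 0.00841). *MMP1*, a collagenase, differed by 0.47 (standard error 0.11, limma's adjusted p = 0.0234), and its other transcript cluster by 0.52 (limma's adjusted p = 0.0692). *NEK7*, a kinase that binds NLRP3, differed by 0.34 (standard error 0.07, limma's adjusted p = 0.0155). *TIRAP*, an adaptor of Toll-like receptors, differed by −0.39 (standard error 0.08, limma's adjusted p = 0.0168).

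*GMNC*, a geminin-like gene of multiciliated cells that lies beside *IL1RAP*, was called with means of 2.88 and 3.94, both below the background level (difference 1.06, standard error 0.12, limma's adjusted p = 0.00105).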
